A study of Homo sapiens with 44 samples.

Results

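The receptors described here are 7 growth factor receptor genes named in neuroblastoma research: ALK, RET, NTRK2, NTRK3, NGFR, IGF1R and ERBB3. They were taken by symbol from a table of 23367 genes, and all 7 were among the 14534 genes with enough reads to test. They were measured in IMR5/75, a MYCN-amplified cell line from a human neuroblastoma, in which tetracycline turns on a short hairpin RNA (shRNA) against MYCN. All cells were held at the start of DNA synthesis with thymidine for 18 h and released, and both groups carry the shRNA construct. In the Tet plus group tetracycline induced the shRNA, and in the Tet minus group it did not. Each group was sampled at 0, 3, 6, 8, 10, 12, 14, 16, 18, 20 and 22 h after release with 2 libraries per time, called biological replicates in the series' design, which makes 44 libraries. Tetracycline alone and a control hairpin are not among the libraries, and their effects and that of less MYCN cannot be told apart.

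Receptor tyrosine kinases sit in the cell membrane, bind a secreted ligand outside the cell, and pair up so that each kinase phosphorylates its partner. Adaptor proteins then dock on the phosphorylated tails and switch on the RAS to MAPK and the PI3K to AKT cascades. ALK is mutated or amplified in part of neuroblastomas, and lies on the chromosome arm that also carries MYCN. RET answers the GDNF family through a co-receptor of the GFRA family, and is needed for the enteric and sympathetic nervous system. NTRK2 and NTRK3 encode TrkB and TrkC, the receptors of BDNF and of neurotrophin-3, and NGFR encodes p75, which binds all neurotrophins and has no kinase. IGF1R is the insulin-like growth factor receptor, and ERBB3 a neuregulin receptor of the neural crest and its Schwann cell branch.

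The start regions of the receptors whose difference between Tet plus and Tet minus passed the test are shown first. Each window runs from 250 bases before to 50 bases after a RefSeq transcript start (build GRCh38.p14) and is written 5′ to 3′ on the strand of the gene. RefSeq windows were at hand for 5 of the 7 genes, 10 windows in all. Capitals mark GGGCGG on either strand (CCGCCC on the other), the core of a GC box, and CACGTG, the E-box letters that MYC proteins are known to bind.
ALK, upstream start, chr2:29921537-29921836, minus strand: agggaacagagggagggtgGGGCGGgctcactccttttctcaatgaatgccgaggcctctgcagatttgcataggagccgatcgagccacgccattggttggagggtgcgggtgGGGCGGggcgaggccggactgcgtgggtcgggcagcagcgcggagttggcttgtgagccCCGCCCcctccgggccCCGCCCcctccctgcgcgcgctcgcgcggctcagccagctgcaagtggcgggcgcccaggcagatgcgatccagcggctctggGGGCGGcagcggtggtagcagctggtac
ALK, internal start, chr2:29223774-29224073, minus strand: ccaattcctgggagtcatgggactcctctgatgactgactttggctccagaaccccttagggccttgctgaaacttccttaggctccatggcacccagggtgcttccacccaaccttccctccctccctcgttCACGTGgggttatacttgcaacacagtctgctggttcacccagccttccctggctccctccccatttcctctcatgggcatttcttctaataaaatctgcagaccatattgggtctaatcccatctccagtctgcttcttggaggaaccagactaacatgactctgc
RET, upstream start, chr10:43076819-43077118, plus strand: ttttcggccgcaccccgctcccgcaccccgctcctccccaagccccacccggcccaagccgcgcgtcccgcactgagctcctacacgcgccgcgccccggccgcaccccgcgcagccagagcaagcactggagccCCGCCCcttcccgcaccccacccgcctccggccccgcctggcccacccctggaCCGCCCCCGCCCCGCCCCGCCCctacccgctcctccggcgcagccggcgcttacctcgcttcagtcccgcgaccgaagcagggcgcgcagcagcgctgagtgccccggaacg
IGF1R, chr15:98648289-98648588, plus strand: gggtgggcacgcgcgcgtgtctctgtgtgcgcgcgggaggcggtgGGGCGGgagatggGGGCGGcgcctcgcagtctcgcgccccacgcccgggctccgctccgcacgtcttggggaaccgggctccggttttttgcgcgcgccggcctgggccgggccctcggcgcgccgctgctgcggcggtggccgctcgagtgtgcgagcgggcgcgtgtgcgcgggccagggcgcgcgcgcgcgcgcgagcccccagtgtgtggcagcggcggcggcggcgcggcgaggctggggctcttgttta
The upstream windows of ALK and RET each held 5 matches to GGGCGG, and that of IGF1R held 2. Of 35116 windows in the table, 45% held at least 1 such match. CACGTG was found in 1 of the 10 receptor windows, that of the internal ALK start, and in 7.26% of all windows. The NTRK3 window, at chr15:88256690-88256989 on the minus strand, held 2 matches to GGGCGG and none to CACGTG. A further RET window, at chr10:43104515-43104814 on the plus strand, is not printed above. It held 1 match to GGGCGG and none to CACGTG. Counts per gene do not show which start is used, and a match of letters is a description only.

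Gene counts per library ranged from about 10906500 to 25313500. Beside them were 92 rows of ERCC spike-in transcripts, synthetic RNAs added before library preparation. MYCN itself had 938.4, 1002 and 1213 CPM (lowest, median and highest) in the 14 Tet plus libraries at 0 to 14 h, against 969.7, 1228 and 1479 CPM in the 14 Tet minus libraries, where CPM is the usual unit of counts scaled to library size. It was lower in Tet plus in 14 of 14 same-numbered pairs, by 17.3% (log2 fold change of Tet plus over Tet minus -0.27, SE 0.0460, edgeR adjusted p = 2.71e-05). Here and below an adjusted p is the Benjamini-Hochberg value of edgeR's quasi-likelihood fit over all genes tested, called where it is under 0.05, and log2 fold changes are Tet plus over Tet minus. Averages over times treat libraries of different times as independent, though several receptors kept the same replicate difference across times, as given below. With 2 replicates, their SE and adjusted p, blocked ones included, do not measure variation between independent experiments. In the 8 pairs at 16 to 22 h MYCN was lower in all 8, by 16.5%. Markers of noradrenergic neuroblastoma were present, with a median of 428.2 CPM in Tet plus against 331.8 CPM in Tet minus for HAND2. TH, the first enzyme of catecholamine synthesis, had a median of 0.0530 CPM in Tet plus against 0.0527 CPM in Tet minus. Up to 14 h same-numbered libraries of the groups carry one lane number. The 8 Tet plus libraries of 16 to 22 h carry lane numbers other than those of Tet minus at these times. ERCC rows made up 0.0543% to 0.376% of their counts, against 1.13% to 3.43% in Tet minus libraries. These Tet plus libraries reuse the lane numbers of 0, 3 and 6 h, some with the same index tag as a library there. One lane cannot hold the same tag for 2 libraries, so an equal lane number was not always one sequencing lane. Group, lane and sequencing run cannot be told apart at 16 to 22 h.

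Among the 7 receptors, ALK and IGF1R were abundant, RET and NGFR were lower, and NTRK3, ERBB3 and NTRK2 were lowest per kilobase. Levels between genes were set on one scale as CPM per kilobase of joined exons (GENCODE, GRCh38). At 0 to 14 h ALK averaged 12.6 ± 3.25 CPM per kilobase in Tet plus against 8.37 ± 2.23 in Tet minus libraries (SD, n = 14 each). IGF1R averaged 5.52 ± 1.01 CPM per kilobase in Tet plus against 5.07 ± 0.579 in Tet minus libraries. In Tet minus cells ALK stood above IGF1R in 14 of 14 libraries, although the ranges of the pair overlapped. IGF1R in turn was 10.4 times as high as RET, with no overlap.

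RET averaged 0.940 ± 0.400 CPM per kilobase in Tet plus against 0.488 ± 0.176 in Tet minus libraries at 0 to 14 h. NGFR averaged 0.526 ± 0.327 CPM per kilobase in Tet plus against 0.485 ± 0.292 in Tet minus libraries. In Tet minus cells RET was above NGFR in 7 of 14 libraries, all of them of replicate 2. In replicate 1 NGFR was above RET at each of these times, so their order reversed between the replicates. NGFR was 13.2 times as high as NTRK3, again with no overlap. The 3 lowest receptors had no constant order. NTRK3 was above ERBB3 in 9 of 14 Tet minus libraries, among them all of replicate 2, and ERBB3 above NTRK2 in 9 of 14. ERBB3 had 0 to 11 reads in any library and NTRK2 had 1 to 22 reads. NTRK3 was better covered, with 12 to 59 reads in Tet plus and 5 to 39 reads in Tet minus libraries at 0 to 14 h, and its level per kilobase divides by 25284 bases of joined exons, against 3676 for NGFR.

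The levels of NTRK2 and NTRK3 depend on the length assigned to them, because their isoforms differ widely in length. NTRK2 has 20363 bases of joined exons and 8633 in its longest coding transcript. With the longer length NTRK2 averaged 0.0222 CPM per kilobase in Tet minus libraries at 0 to 14 h, and with the shorter one 0.0524, which places it above NTRK3 (0.0464) and ERBB3 (0.0457). The order of the other receptors was the same on both lengths. SOX10, the defining transcription factor of the Schwann cell lineage that also expresses ERBB3 and NGFR, was at 0 in 19 of 22 Tet plus and 21 of 22 Tet minus libraries. S100B, another glial marker, was at 0 in 18 of 22 Tet plus and 15 of 22 Tet minus libraries. The summed glial list without the receptors lay between 12.1 and 25.0 CPM in Tet plus and between 12.3 and 21.8 CPM in Tet minus libraries.

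**Figure D1:**
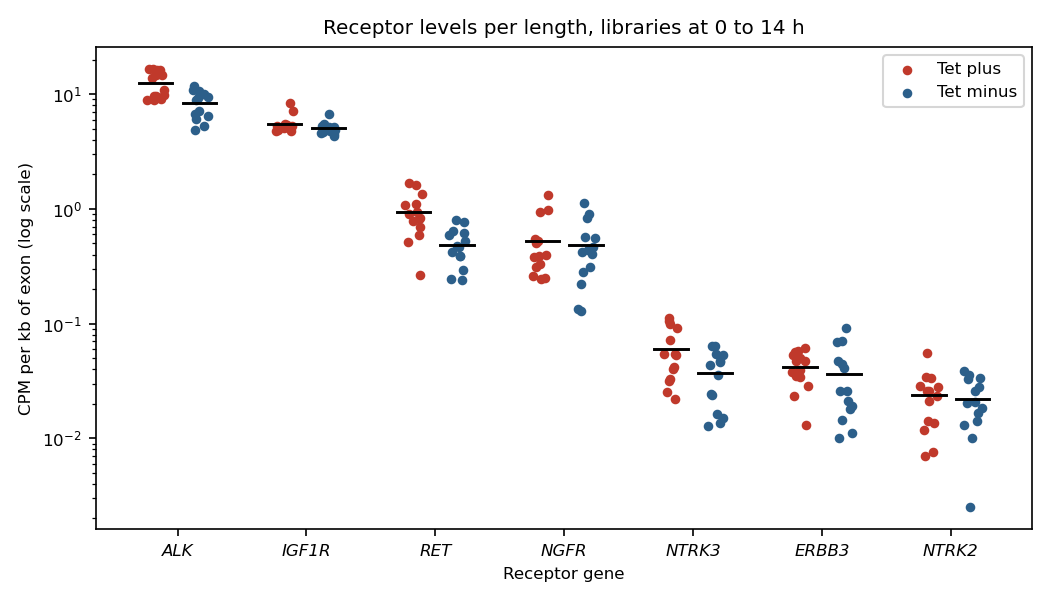
Level of each receptor at 0 to 14 h in CPM per kilobase of joined exons (log axis), 14 Tet plus (red) and 14 Tet minus (blue) libraries each, with bars at the means. ALK and IGF1R form the top, RET and NGFR the middle and NTRK3, ERBB3 and NTRK2 the bottom of the order.

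ALK and RET were higher in Tet plus cells over the first 14 h. ALK rose 1.51-fold and RET 1.91-fold, and no receptor fell. Of all genes tested 41.4% were called, 20.1% higher and 21.3% lower in Tet plus, so 2 of 7 receptors is not more than that share. The median log2 fold change of the 7 was 0.32, against 0.01 over all genes tested. That median is the value of ERBB3, which did not pass (edgeR adjusted p = 0.333). ERBB3 had 2 to 9 reads in Tet plus and 1 to 11 reads in Tet minus libraries at these times.

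ALK had 58.2, 82.0 and 109.5 CPM (lowest, median and highest) in the 14 Tet plus libraries at 0 to 14 h, against 32.2, 59.4 and 77.7 CPM in the 14 Tet minus libraries. The ranges overlapped. Within replicate 1 they did not, with 92.0 to 109.5 CPM in Tet plus against 58.1 to 77.7 CPM in Tet minus. Replicate 2 had 58.2 to 72.1 CPM in Tet plus against 32.2 to 60.6 CPM in Tet minus, which overlap through the Tet minus library at 3 h. ALK was higher in Tet plus in 14 of 14 same-numbered pairs, as were 8.26% of the genes tested. The log2 fold change was 0.59 (SE 0.188, edgeR adjusted p = 0.0128). Within single lane sets it was 0.48 over 0, 3 and 6 h (adjusted p = 0.267), 0.64 over 8, 10 and 12 h (0.117) and 0.80 at 14 h (0.412). In the fit that adds replicate number as a blocking term ALK passed in each of these sets (adjusted p = 1.24e-04, 1.06e-06 and 3.62e-04).

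RET had 1.71, 5.58 and 10.9 CPM (lowest, median and highest) in Tet plus libraries at 0 to 14 h, against 1.55, 3.01 and 5.11 CPM in Tet minus libraries. It was higher in Tet plus in 13 of 14 same-numbered pairs, the exception being replicate 2 at 3 h, where the values were 5.10 CPM in Tet plus against 5.11 CPM in Tet minus. The log2 fold change was 0.93 (SE 0.222, edgeR adjusted p = 0.00132), the largest of the 7 receptors at these times, from 28 to 253 reads per library. With libraries scaled to the ERCC rows, which leaves 48 of all genes called, neither ALK (0.81, adjusted p = 0.520) nor RET (0.97, adjusted p = 0.371) passed.

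NTRK3 had 0.557, 1.35 and 2.86 CPM (lowest, median and highest) in Tet plus libraries at 0 to 14 h, against 0.324, 1.00 and 1.61 CPM in Tet minus libraries. It was higher in Tet plus in 11 of 14 same-numbered pairs. The log2 fold change of 0.65 (SE 0.316) did not pass (edgeR adjusted p = 0.102). In the blocked fit it did (0.68, SE 0.128, edgeR adjusted p = 4.52e-05). That fit called 3 of 7 receptors, all higher in Tet plus, and 52.2% of all genes (26.5% higher and 25.6% lower).

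For the other receptors no difference was detectable at 0 to 14 h. IGF1R had 58.6, 63.7 and 103.3 CPM (lowest, median and highest) in Tet plus libraries, against 52.4, 61.5 and 81.8 CPM in Tet minus libraries. Its log2 fold change was 0.12 (SE 0.0652, edgeR adjusted p = 0.163), and its 95% interval ran from -0.02 to 0.25 on the log2 scale. Without the Tet plus replicate 1 library at 6 h IGF1R passed (adjusted p = 0.0377). For NGFR the interval ran from -0.52 to 0.74, for NTRK2 from -0.39 to 0.57 and for ERBB3 from -0.21 to 0.86, so for NGFR and ERBB3 a change as large as that of ALK lay inside the interval. NGFR was higher in Tet plus in 9 of 14 same-numbered pairs, ERBB3 in 9 of 14 and NTRK2 in 6 of 14.

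**Figure D2:**
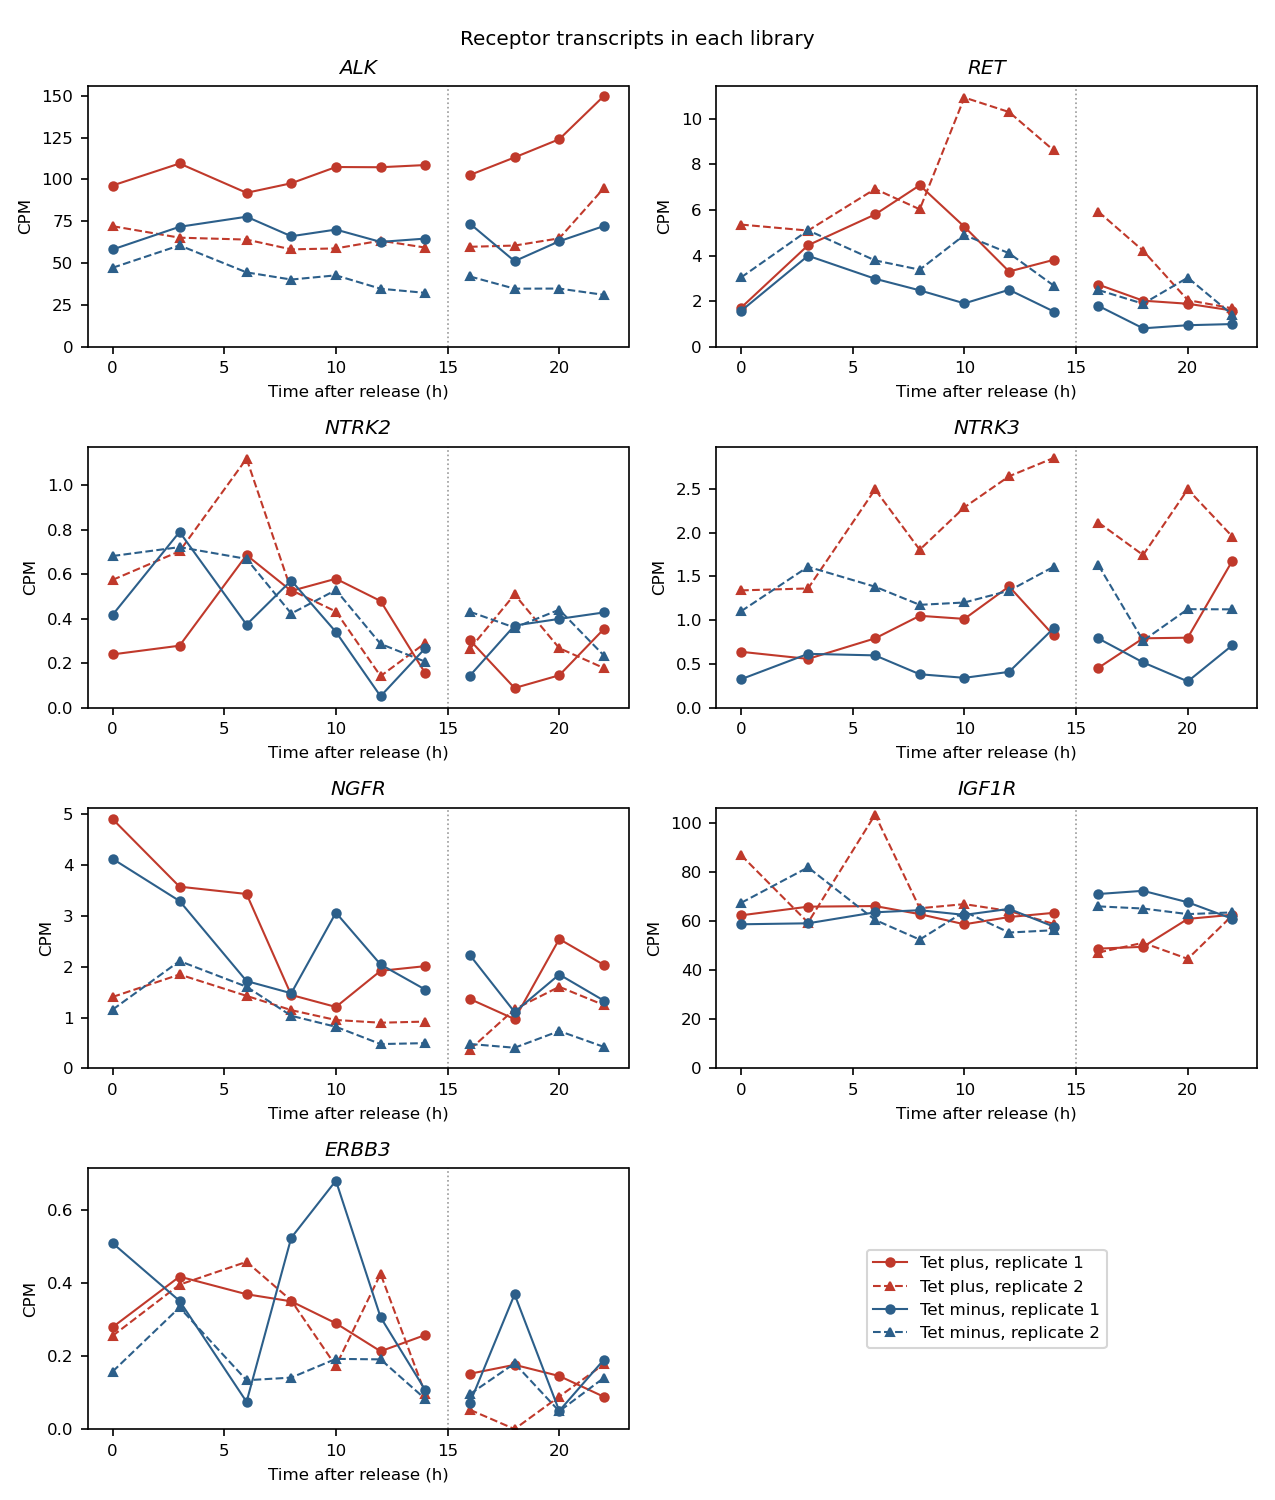
CPM of each receptor in every library against time after release (h), Tet plus in red and Tet minus in blue. Replicate 1 is drawn as circles with solid lines and replicate 2 as triangles with dashed lines. The dotted line marks where the groups stop sharing lane numbers, which also change after 6 h and after 12 h. The ALK lines of Tet plus lie above those of Tet minus within each replicate, and those of IGF1R lie below at 16, 18 and 20 h, which the ERCC scale turns positive.

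From 16 to 22 h ALK was again higher in Tet plus, and IGF1R was lower relative to the median gene, which the ERCC scale turns positive (4.08, under an all-gene median of 4.40). ALK had 59.7, 98.7 and 149.8 CPM (lowest, median and highest) in the 8 Tet plus libraries, against 31.0, 46.6 and 73.6 CPM in the 8 Tet minus libraries. It was higher in Tet plus in 8 of 8 same-numbered pairs, as were 16.2% of the genes tested. The log2 fold change was 0.93 (SE 0.251, edgeR adjusted p = 0.00298), a 1.90-fold difference. IGF1R had 44.6, 50.3 and 62.5 CPM in Tet plus libraries, against 60.9, 65.5 and 72.3 CPM in Tet minus libraries. It was lower in Tet plus in 7 of 8 same-numbered pairs, and its log2 fold change was -0.32 (SE 0.0870, edgeR adjusted p = 0.00341). Of all genes 53.1% were called at these times, 26.3% higher and 26.8% lower, beside 1 receptor higher and 1 lower of 7.

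RET at 16 to 22 h had 1.59, 2.04 and 5.93 CPM (lowest, median and highest) in Tet plus libraries, against 0.812, 1.60 and 3.03 CPM in Tet minus libraries. Its log2 fold change of 0.65 (SE 0.331) did not pass (edgeR adjusted p = 0.101). With the replicate block it passed (adjusted p = 0.00746), and it also passed without the Tet minus replicate 2 library at 20 h (log2 fold change 0.91, adjusted p = 0.0309). NTRK3 gave a log2 fold change of 0.81 (SE 0.439, edgeR adjusted p = 0.126, and 2.73e-04 in the blocked fit). NGFR, NTRK2 and ERBB3 did not pass either way. Under the block 4 of 7 receptors were called, against 62.6% of all genes (32.1% higher and 30.5% lower).

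The difference between Tet plus and Tet minus was then compared between the time spans, and IGF1R was called. Its log2 fold change at 16 to 22 h minus that at 0 to 14 h was -0.43 (SE 0.109, edgeR adjusted p = 0.00501), where 20.6% of all genes were called. For ALK the later minus the earlier log2 fold change was 0.33 (SE 0.312, edgeR adjusted p = 0.506), which passed in the blocked fit (adjusted p = 0.00605, with 31.7% of genes called). Same-numbered libraries of the groups share a lane number at 0 to 14 h but not at 16 to 22 h. The part of lanes or sequencing runs in these values was not tested. On the ERCC scale the median log2 fold change of all genes moved to 0.13 at 0 to 14 h and to 4.40 at 16 to 22 h, where IGF1R stood below it at 4.08 and ALK above it at 5.37.

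Time by time, with 2 libraries per group, 1 of the 77 receptor and time combinations passed. That was IGF1R at 16 h, with 48.7 and 47.2 CPM in Tet plus against 71.0 and 65.9 CPM in Tet minus libraries (log2 fold change -0.51, SE 0.174, edgeR adjusted p = 0.0291). On the ERCC scale this value was 4.03. The call ended when any 1 of the 4 libraries at 16 h was left out (adjusted p 0.0726 to 0.139). The share of all genes called was 1.57%, 2.72%, 7.09%, 3.43%, 3.4%, 4.19% and 5.37% at 0, 3, 6, 8, 10, 12 and 14 h, and 27%, 18.7%, 23.9% and 28.4% at 16, 18, 20 and 22 h. At 18 h IGF1R had 49.5 and 51.1 CPM in Tet plus against 72.3 and 65.1 CPM in Tet minus, which passed in the blocked fit (edgeR adjusted p = 0.0744, and 0.0444 blocked). At 20 h the values were 60.8 and 44.6 CPM in Tet plus against 67.6 and 62.8 CPM in Tet minus. By 22 h the groups had met, with 62.5 and 62.3 CPM in Tet plus against 60.9 and 63.5 CPM in Tet minus.

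The log2 fold change of ALK was above 0 at each time, smallest at 6 h (0.36) and largest at 22 h (1.25). At 3 h it was 0.40, and -0.022 without the Tet plus replicate 1 library. At 22 h ALK had 149.8 and 94.8 CPM in Tet plus against 72.2 and 31.0 CPM in Tet minus. None of the 11 passed, with edgeR adjusted p between 0.0646 at 22 h and 0.776 at 3 h. With the replicate block ALK passed at 9 of the 11 times, all but 3 and 6 h, with adjusted p between 7.19e-08 and 0.0174. The blocked fit called 8.08%, 8.95%, 17.4%, 12.4%, 10.3%, 12.7% and 16.2% of all genes at 0, 3, 6, 8, 10, 12 and 14 h, and 38.9%, 30%, 36.8% and 41.2% at 16, 18, 20 and 22 h.

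The RET difference was small at 3 h, where RET had 4.46 and 5.10 CPM in Tet plus against 3.995 and 5.11 CPM in Tet minus. At 14 h RET had 3.82 and 8.62 CPM in Tet plus against 1.55 and 2.69 CPM in Tet minus (log2 fold change 1.54, SE 0.597, edgeR adjusted p = 0.140), and the fold change was 0.83 without the Tet plus replicate 2 library. Averaged over 8, 10 and 12 h, which share a lane set, RET rose by 1.14 on the log2 scale (SE 0.335, edgeR adjusted p = 0.0151, beside 21.3% of genes called). That call ended without the Tet plus replicate 2 libraries at 10 h (adjusted p = 0.0618) or 12 h (0.103) and without the Tet minus replicate 1 library at 10 h (0.0563). Averaged over 0, 3 and 6 h RET gave 0.52 (edgeR adjusted p = 0.315), and no receptor passed there (18.8% of genes called). In the blocked fit ALK and RET (adjusted p = 0.0447) passed over 0, 3 and 6 h (31.6% of genes called), and ALK, RET and NTRK3 (1.09, adjusted p = 5.11e-05) over 8, 10 and 12 h (34.1%). With the replicate block RET passed at 6, 8, 10, 12, 14, 16 and 18 h, and NTRK3 at 10, 12, 20 and 22 h. In all, 22 of the 77 combinations passed with the block.

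A joint F test asked whether the difference between Tet plus and Tet minus varied over 0 to 14 h. No receptor was called (edgeR adjusted p = 1.00 for each, 0.0138% of genes called), and 0 of 7 had an unadjusted p under 0.05. The blocked fit also called 0 of 7, with 0.151% of genes called.

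**Figure D3:**
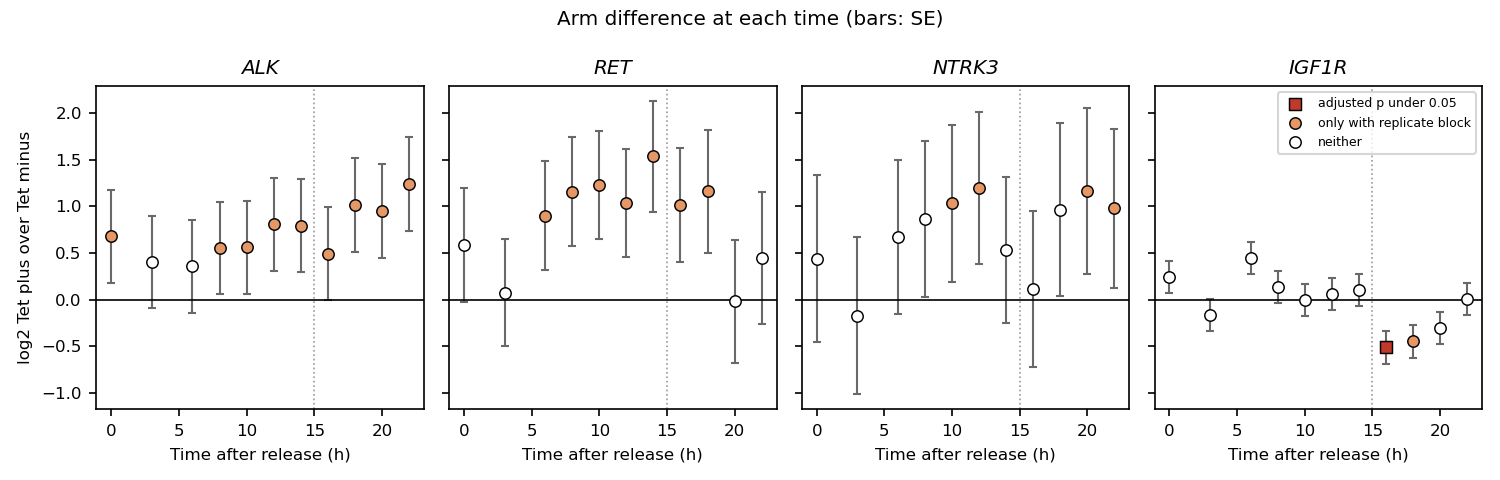
Log2 fold change of Tet plus over Tet minus at each time after release (h) for ALK, RET, NTRK3 and IGF1R, with bars for the SE. The red square marks the value with an adjusted p under 0.05, orange circles those that pass only with replicate number as a block, and open circles the rest; ALK lies above 0 at each time and IGF1R below it at 16, 18 and 20 h, where the ERCC scale gives 4.03, 3.76 and 4.04.

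The course after release was compared within lane sets, both groups together. In edgeR 0 of 42 receptor and course combinations were called, 2 had an unadjusted p under 0.05, and 4 were called in the blocked fit. All genes were called in 6.34% at 6 against 0 h, 1.91% at 12 against 8 h and 0.949% at 22 against 16 h, and in 6.91%, 0.75% and 2.21% over the 3 whole lane sets. The blocked shares were 14.2%, 4.42% and 4.98%, and 18.1%, 1.8% and 18.1% over the lane sets. The smallest p was that of NTRK2 for 12 against 8 h (log2 change -1.14, edgeR adjusted p = 0.304). At 12 h it had 9 and 3 reads in Tet plus against 1 and 6 in Tet minus, and at 8 h 12 and 12 reads in Tet plus against 12 and 9 in Tet minus.

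RET passed in 3 of the 4 blocked course tests that were called. At 6 h it had 5.81 and 6.93 CPM in Tet plus against 2.99 and 3.79 CPM in Tet minus. At 0 h it had 1.71 and 5.36 CPM in Tet plus against 1.57 and 3.04 CPM in Tet minus. The change from 0 h, averaged over the groups, was 0.73 on the log2 scale (SE 0.422, edgeR adjusted p = 0.368), and 0.78 in the blocked fit (adjusted p = 0.0321). Its course over 0, 3 and 6 h had a blocked adjusted p of 0.0391. At 22 h RET had 1.59 and 1.69 CPM in Tet plus against 0.999 and 1.405 CPM in Tet minus. At 16 h it had 2.73 and 5.93 CPM in Tet plus against 1.80 and 2.49 CPM in Tet minus. The change at 22 h against 16 h was -1.13 (SE 0.468, edgeR adjusted p = 0.288, and 0.0307 in the blocked fit). The ALK course over 16 to 22 h also passed in the blocked fit alone (adjusted p = 0.0237).

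NGFR was highest in replicate 1 before and soon after release. At 0 h it had 4.91 and 1.404 CPM in Tet plus against 4.12 and 1.15 CPM in Tet minus libraries (replicates 1 and 2). At 14 h it had 2.01 and 0.920 CPM in Tet plus against 1.55 and 0.496 CPM in Tet minus libraries, from other lanes, so time and lane cannot be told apart between these values. Within the lane set of 0, 3 and 6 h the change at 6 h did not pass (log2 change -0.55 against 0 h, edgeR adjusted p = 0.653).

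The receptors also differed between replicates 1 and 2, in both directions. These differences are a description, with no test. ALK was higher in replicate 1 in 22 of 22 pairs of one group and time, by a median of 1.70-fold. NGFR was higher in replicate 1 in 21 of 22 pairs, by a median of 2.18-fold. RET was higher in replicate 2 in 21 of 22 pairs, by a median of 1.65-fold, and NTRK3 in 22 of 22 by 2.18-fold. IGF1R did not separate the replicates, being higher in replicate 2 in 10 of 22 pairs. Of the genes tested, 1.31% had a median replicate difference at least as large as that of NTRK3, and 3.66% one at least as large as that of ALK.

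The summed level of mesenchymal neuroblastoma markers, of which VIM was the most abundant, moved with replicate number as well. Single markers were not compared between replicates. At 0 to 14 h the sum was 1049 to 1458 CPM in replicate 2 and 708.8 to 885.4 CPM in replicate 1 of Tet plus. In Tet minus it was 1072 to 1317 CPM in replicate 2 and 736.4 to 1012 CPM in replicate 1. COL1A2 of this list was at 0 in 21 of 22 Tet plus and 22 of 22 Tet minus libraries, while VIM and FN1 had medians of 602.6 and 147.0 CPM in Tet plus against 743.9 and 115.6 CPM in Tet minus. The summed noradrenergic list was 2311 to 2718 CPM in replicate 1 and 1660 to 2175 CPM in replicate 2 of Tet plus. In Tet minus it was 1835 to 2372 CPM in replicate 1 and 1449 to 2388 CPM in replicate 2. Their part in the replicate differences of the receptors was not tested. Between the groups at 0 to 14 h, 6 of 10 noradrenergic markers tested rose in Tet plus and none fell (median log2 fold change 0.35), where 20.1% of all genes rose and 21.3% fell. Of 8 mesenchymal markers 2 rose and 1 fell. Of 6 glial markers, among them the receptors ERBB3 and NGFR themselves, none passed. In the blocked fit 8 noradrenergic markers rose and none fell, 3 mesenchymal markers rose and 4 fell, and 3 glial markers rose and none fell, where 26.5% of all genes rose and 25.6% fell. Their part in the difference of the receptors was not tested either.

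As a description over the 14 group means at 0 to 14 h, receptor levels were compared by their log2 CPM. ALK followed RET (Pearson r = 0.788), and RET followed NTRK3 (0.738). NGFR was closest to IGF1R (0.673), and NTRK3 ran against NGFR (-0.26). Among genes whose log2 CPM averaged 3 or more, those near ALK included CUL7 (r = 0.986) and ACOT11 (0.975). Those closest to RET were MDGA1 (0.930), PLXNA2 (0.902) and STRA6 (0.902). NTRK3 was closest to GRK5 (0.882), MAP4K4 (0.869) and HMP19 (0.861). NGFR was closest to ARHGEF11 (0.952), PLA2G6 (0.950) and SEPN1 (0.948), and IGF1R to ZNF70 (0.923), SEMA4D (0.922) and STX16 (0.901). NTRK2 was closest to SLC7A11 (0.891), ZADH2 (0.858) and SLCO3A1 (0.855), and ERBB3 to GUSBP11 (0.780), PLXDC2 (0.768) and DPP6 (0.749). The group means share libraries and lanes, and these values include the difference between Tet plus and Tet minus itself. They also average over replicates 1 and 2, between which ALK and RET differed in opposite directions.

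The genes around the receptors were read in the same comparison, beginning with their ligands. On the ERCC scale CRKL, an adaptor, is the one gene called lower at 0 to 14 h in these lists that turns positive, and all those called lower at 16 to 22 h do so. For each list the shares of all genes to read its counts against are 20.1% higher and 21.3% lower at 0 to 14 h, and 26.3% higher and 26.8% lower at 16 to 22 h. Of 11 ligands tested 3 rose at 0 to 14 h and none fell, near the 20.1% of all genes that rose, with a median log2 fold change of 0.17. BDNF, the ligand of TrkB, averaged 35.1 ± 7.72 CPM in Tet plus against 26.4 ± 6.46 CPM in Tet minus libraries (SD, n = 14 each; log2 fold change 0.42, SE 0.0757, adjusted p = 6.62e-05, edgeR). NRG1, the neuregulin that binds ERBB3, averaged 7.28 ± 1.65 CPM in Tet plus against 5.53 ± 1.24 CPM in Tet minus libraries (0.40, adjusted p = 0.00502). GDF15, which signals through RET with GFRAL in the brainstem, gave 0.59 (adjusted p = 0.0462), while GFRAL had 1 read in the whole table.

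MDK, midkine, which has been named as an ALK ligand, was the most abundant of the list, at 284.5 ± 53.3 CPM in Tet plus against 253.0 ± 45.7 CPM in Tet minus libraries (SD, n = 14 each), and did not pass (adjusted p = 0.178, edgeR; 0.0402 with the replicate block). GDNF, the first ligand of RET, was at 2.66 ± 0.606 CPM in Tet plus against 2.67 ± 0.478 CPM in Tet minus libraries. The ALK ligand genes FAM150A and FAM150B had 0 and 24 reads in all 44 libraries together. NTF3, the TrkC ligand, had 0 reads, and IGF1 and IGF2 had 4 and 1. A count at or near 0, here and for ERBB2, GFRAL and COL1A2, may also come from reads left uncounted where genes overlap, since the counting annotation is not given in the sources used here.

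Of 14 co-receptors and partner receptors tested 8 rose at 0 to 14 h and none fell, beside 20.1% and 21.3% of all genes, with a median log2 fold change of 0.27 beside 0.01 over all genes. GFRA2, a GDNF family co-receptor of RET, was the most abundant at 498.4 ± 66.5 CPM in Tet plus against 416.8 ± 53.7 CPM in Tet minus libraries (log2 fold change 0.26, SE 0.0448, adjusted p = 4.77e-05, edgeR). GFRA1 averaged 107.1 ± 24.4 CPM in Tet plus against 79.1 ± 19.0 CPM in Tet minus libraries (0.44, adjusted p = 0.0392). Both co-receptors were thus far above RET itself, on the CPM scale that does not correct for length. INSR, the insulin receptor that pairs with IGF1R, averaged 55.8 ± 14.8 CPM in Tet plus against 39.8 ± 14.99 CPM in Tet minus libraries (0.53, SE 0.0578, adjusted p = 4.54e-08).

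SORCS2, a sorting receptor that binds p75, gave the widest difference of the list (log2 fold change 0.83, SE 0.121, adjusted p = 4.10e-06, edgeR), at 7.41 ± 1.21 CPM in Tet plus against 4.25 ± 1.17 CPM in Tet minus libraries. KIDINS220, a scaffold of Trk receptors and p75, gave 0.29 (adjusted p = 1.07e-06). SORT1, SORCS1 and NCAM1, an alternative receptor of GDNF, also rose, by 0.33, 0.41 and 0.57 on the log2 scale. In the later span 4 of the 14 rose and 1 fell (6 and 3 in the blocked fit), beside 26.3% and 26.8% of all genes. Of the kinases that ERBB3 needs as partners, ERBB2 had 3 reads in the whole table and EGFR averaged 22.9 ± 6.56 CPM in Tet plus against 22.4 ± 5.37 CPM in Tet minus libraries (adjusted p = 0.901).

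Among 6 IGF binding proteins, which hold insulin-like growth factors outside the cell, 1 rose and 1 fell at 0 to 14 h, near the 20.1% and 21.3% of all genes. In the blocked fit 3 rose and 1 fell, with IGFBP3 (0.72, adjusted p = 8.50e-09) and IGFBPL1 (0.24, adjusted p = 1.74e-05) added. IGFBP5 averaged 63.2 ± 20.6 CPM in Tet plus against 34.9 ± 15.7 CPM in Tet minus libraries (log2 fold change 0.89, SE 0.155, adjusted p = 4.30e-05, edgeR). IGFBP2 averaged 146.8 ± 24.5 CPM in Tet plus against 190.4 ± 24.0 CPM in Tet minus libraries (-0.38, SE 0.0747, adjusted p = 1.89e-04). Both passed in the same direction at 16 to 22 h.

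Inside the cell, 7 of 26 adaptors and substrates rose and 3 fell at 0 to 14 h, beside 20.1% and 21.3% of all genes, with a median log2 fold change of 0.04. The 3 with the smallest adjusted p were GAB2 (0.48, adjusted p = 2.77e-07, edgeR), SOS2 (0.33, 1.87e-05) and SHC1 (0.37, 5.88e-05), all links between receptors and RAS or PI3K. In the later span 10 rose and 5 fell, beside 26.3% and 26.8% of all genes. Of 16 genes that turn receptors off 4 rose and 3 fell at 0 to 14 h, near the 20.1% and 21.3% of all genes. Their examples were GRB14 (-0.90, 6.99e-06) and GRB10 (-0.29, 0.00603), which bind and restrain insulin and IGF receptors, and SOCS2 (0.32, 0.00657), a feedback inhibitor of growth hormone signalling. In the later span 5 of these rose and 3 fell, beside the same 26.3% and 26.8%.

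MAPK feedback and output genes rise with ERK activity in many cells. Of 17 tested 4 rose and 4 fell at 0 to 14 h, near the 20.1% and 21.3% of all genes, with a median log2 fold change of -0.18. In the blocked fit 5 rose and 7 fell. The ERK phosphatases DUSP4 (0.47, adjusted p = 4.36e-06, edgeR) and DUSP6 (0.52, 8.25e-04) rose, while SPRED1 (-0.50, 8.52e-05), a brake on RAS, fell. Later, at 16 to 22 h, 4 rose and 8 fell, beside 26.3% and 26.8% of all genes.

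Of 18 genes of the PI3K to mTOR pathway 9 rose and none fell at 0 to 14 h (11 and 1 in the blocked fit), beside 20.1% and 21.3% of all genes, with a median log2 fold change of 0.17. PIK3R3, a regulatory subunit of PI3K, averaged 350.1 ± 40.4 CPM in Tet plus against 254.3 ± 20.9 CPM in Tet minus libraries (0.46, SE 0.0376, adjusted p = 2.64e-10, edgeR). PIK3IP1, an inhibitor of PI3K, gave 1.25 (adjusted p = 9.58e-09). In the later span 10 rose and 2 fell, beside 26.3% and 26.8%.

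Of 37 other receptor tyrosine kinases 6 rose and 5 fell at 0 to 14 h (9 and 9 in the blocked fit), not more than the 20.1% and 21.3% of all genes, with a median log2 fold change of 0.06. PDGFRA, a platelet-derived growth factor receptor, averaged 55.0 ± 16.5 CPM in Tet plus against 97.5 ± 28.5 CPM in Tet minus libraries (-0.82, SE 0.0521, adjusted p = 2.37e-12, edgeR). FGFR4, a fibroblast growth factor receptor, averaged 13.1 ± 1.68 CPM in Tet plus against 23.5 ± 4.21 CPM in Tet minus libraries (-0.83, SE 0.0649, adjusted p = 1.10e-10). INSR, described above, had the third smallest adjusted p of the list and rose. In the later span 8 rose and 8 fell, beside 26.3% and 26.8% of all genes.

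**Figure D4:**
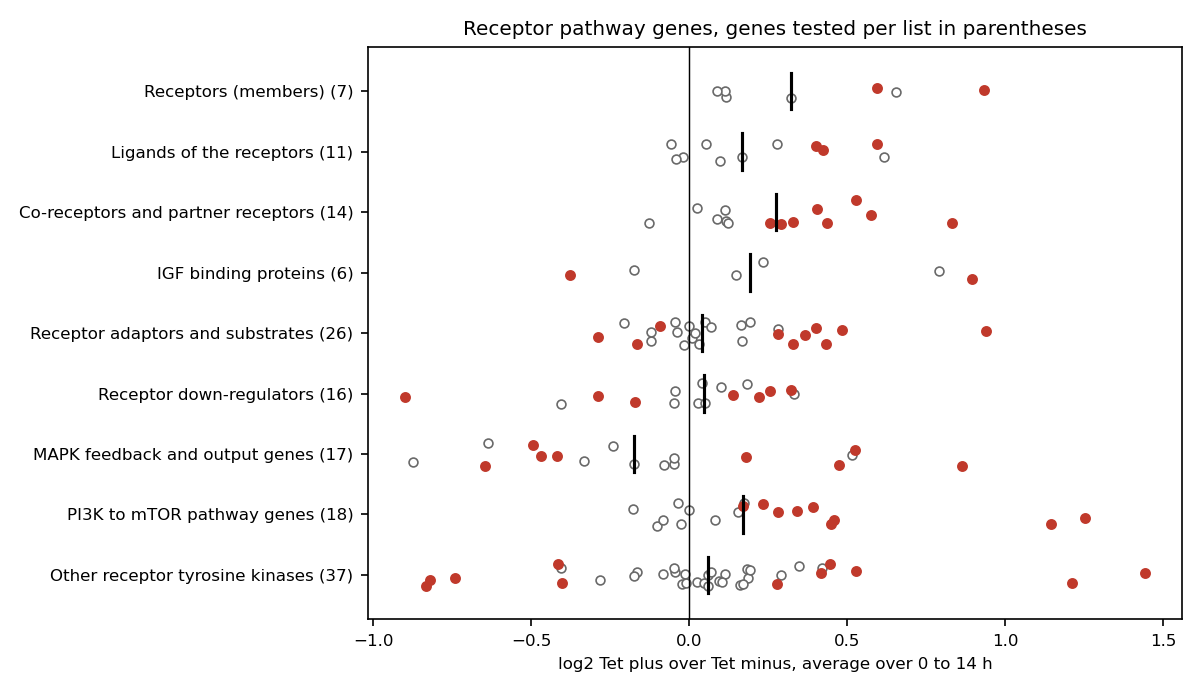
Log2 fold change of Tet plus over Tet minus, averaged over 0 to 14 h, for each tested gene of the receptor lists; filled red points passed an adjusted p of 0.05 in edgeR, open points did not, and bars are medians. Co-receptors (8 of 14) and PI3K to mTOR genes (9 of 18) have called members above 0, where 20.1% of all genes were called higher, and MAPK feedback genes lie on both sides of 0.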

How the data were processed

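RNA was sequenced from 44 libraries of IMR5/75 cells (2 groups, 11 times, 2 replicates). Per the labels' protocols, ribosomal RNA was removed and directional libraries were made. The values the authors deposited are raw read counts of each gene, in whole numbers. TopHat2 2.0.5, HTSeq and hg19 are named, per the submitters' processing notes. Which gene annotation was counted, and with which strand option, is not given in the sources used here, so reads of overlapping genes cannot be assigned with certainty.

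The analysis ran in R 4.3.3 with edgeR 4.0.16: filterByExpr, TMM scaling, and a quasi-likelihood fit of 22 group means with 22 residual degrees of freedom. P-values were adjusted by the Benjamini-Hochberg method over the 14534 genes tested, with a threshold of 0.05. SE was taken as the absolute log2 fold change over the root of F. CPM uses TMM library sizes, and log2 CPM a prior count of 2. The 92 ERCC rows stayed out of library sizes, and 3929 gene rows were 0 throughout. Values rest on about 10906500 to 25313500 gene counts per library.

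Same-numbered libraries of both groups deviated together from their group means (lowest r 0.373 at 0 to 14 h and 0.263 at 16 to 22 h, over 10090 genes). The main fit has no replicate term, so its SE and adjusted p do not use this pairing. Replicate numbers were read as pairs only in the counts of same-numbered pairs and in the blocked fits. The blocked value is printed where it changes the call of a receptor, with counts for the lists it moves most. Replicates of one group and time did not repeat each other: chi-square per gene between them was 8.48 to 48.8. Libraries of different groups or times were not compared in this way.

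The 7 receptors and all gene lists were chosen with earlier results of these data known. Named from each list were the 3 genes with the smallest adjusted p at 0 to 14 h, any ligand or co-receptor with its level, and for likeness of pattern the 3 highest r. Some genes that these rules select are not reported here. Alternatives were DESeq2 1.42.0, median ratio size factors, ERCC scaling, leaving out small nucleolar RNA rows, no count filter, the replicate block, single lane sets, fits of one span, and each library left out. The block within each time and the length of the longest transcript were chosen after seeing the data. The edgeR fit without a block was tested on simulated counts that held no replicate or lane effect. This covered the difference between the groups in each span and at 6 h, and the change from 0 to 6 h. The alternatives and the other comparisons were not run on simulated counts.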

Additional observations from a re-analysis of the deposited data

Results flagged for a closer look

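For IGF1R the difference of Tet plus from Tet minus was itself different in the later time span. The log2 fold change at 16 to 22 h minus that at 0 to 14 h was -0.43 (SE 0.109, edgeR adjusted p = 0.00501). It stayed negative and under the threshold as each library was left out in turn, between -0.49 and -0.36. On the ERCC scale it was 3.84, where the median log2 fold change of all genes was 4.40 at 16 to 22 h. At 0 to 14 h same-numbered libraries of the groups share a lane number, and at 16 to 22 h they do not. The part of lanes or sequencing runs in the difference between the spans was not tested.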

How the results depend on the processing

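Log2 fold changes are given below. ERCC scaling, which sets libraries by the spike-in rows, called 0 receptors at 0 to 14 h (ALK 0.81, RET 0.97), 7 at 16 to 22 h, 7 between the spans and 27 of the 77 combinations at single times, and 48, 14510 and 14464 genes in the first 3. At 16 to 22 h it gave RET 5.02, NTRK3 5.05, NGFR 4.60, NTRK2 3.72, IGF1R 4.08 and ERBB3 4.10, and between the spans RET 4.05, NTRK2 3.59, IGF1R 3.84 and ERBB3 3.70. It also gave 4.31 for RET at 20 h and, for IGF1R, -0.031 at 8 h, 4.03 at 16 h, 3.76 at 18 h and 4.04 at 20 h, under the all-gene shift already given. With the replicate block 4 receptors were called at 16 to 22 h and 2 between the spans (4605 genes), 22 single-time and 4 course combinations. Blocked values were RET 0.68 at 16 to 22 h and 0.075 at 20 h, and NTRK3 0.68 at 0 to 14 h and 0.83 at 16 to 22 h. A block within each time, added later, gave 4, 2 (5037 genes), 23 and 5, with RET 0.69 and 0.090, and NTRK3 0.68 and 0.82. Without the count filter 2 single-time combinations were called, and IGF1R was 0.0070 at 10 h and -0.028 at 22 h. DESeq2 gave RET 0.0057 at 20 h and IGF1R 0.0075 at 10 h, and median ratio factors 0.0030 and 0.0074. Over 0, 3 and 6 h alone ALK was 0.48, RET 0.52 and NTRK2 -0.13, with 0 receptors and 2737 genes called. Over 8, 10 and 12 h ALK was 0.64, NGFR -0.20 and ERBB3 -0.12, with 1 receptor and 3098 genes, and at 14 h ALK was 0.80, RET 1.54 and NTRK2 -0.061, with 0 receptors and 781 genes. Leaving out the small nucleolar RNA rows changed none of 103 results. F tests were not run in DESeq2.
Leaving out 1 library at a time gave 2 to 3 receptors called at 0 to 14 h, 2 to 3 at 16 to 22 h and 1 between the spans, 0 to 3 of the 77 combinations, and 5605 to 6062, 7155 to 7844 and 2603 to 3229 genes. At 0 to 14 h the values were -0.066 to 0.32 for NTRK2, -0.061 to 0.31 for NGFR and 0.066 to 0.16 for IGF1R, and at 16 to 22 h 0.49 to 0.91 for RET and -1.08 to 0.12 for ERBB3. Between the spans NTRK3 gave -0.22 to 0.46 and NGFR -0.0084 to 0.62. Over 0, 3 and 6 h NTRK3 gave -0.044 to 0.68. At single times ALK gave -0.022 to 0.71 at 3 h. RET gave -0.42 to 1.22 at 0 h, -0.097 to 0.26 at 3 h, -0.015 to 1.63 at 12 h and -0.63 to 1.04 at 20 h. NTRK3 gave -0.20 to 1.54 at 0 h, -0.98 to 0.65 at 3 h, -0.40 to 1.46 at 6 h, -0.63 to 1.16 at 14 h and -1.44 to 0.78 at 16 h. IGF1R gave -0.019 to 0.47 at 0 h, -0.39 to 0.086 at 3 h, -0.11 to 0.083 at 10 h, -0.049 to 0.18 at 12 h and -0.028 to 0.033 at 22 h. ALK and RET at 0 to 14 h, and ALK and IGF1R at 16 to 22 h, kept direction and call without any 1 library. Where a setting changed a result the cause was not tested.
Depth limits NTRK2 (1 to 22 reads per library) and ERBB3 (0 to 11) most.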
